A study of Homo sapiens with 6 samples.

Results

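The desmosome is the cell junction that ties the keratin filaments of neighbouring epithelial cells together. The 10 genes described here, of 23024 gene symbols listed, were chosen by name as rows of the deposited FPKM values: the plakophilins PKP1, PKP2, PKP3 and PKP4, the desmocollins DSC2 and DSC3, the desmogleins DSG2 and DSG3, desmoplakin (DSP) and plakoglobin (JUP). Expression was measured by RNA sequencing of total RNA in 3 libraries of 5637 cells labelled sh-RAD51C, with a short hairpin RNA against RAD51C and the genotype RAD51C knockdown, and in 3 libraries labelled NC, with the genotype WT. The 5637 line is an established human bladder carcinoma line, and per the labels' protocols RNA came from transfected cells in both groups. The meaning of NC and the hairpin sequence are not stated in the labels. Nothing there ties the 3 libraries of a group to separate cultures, so p-values reflect library-to-library spread, possibly technical. The series proposes RAD51C as a hub gene in bladder cancer and compared the knockdown with NC.

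Desmocollins and desmogleins are cadherins whose outer parts bind those of the next cell. Inside the cell their tails hold plakoglobin and a plakophilin, both armadillo-repeat proteins, and these bind desmoplakin, whose far end grips keratin. In stratified epithelia the make-up changes with the layer: DSG3, DSC3 and PKP1 are typical of basal and spinous layers of squamous epithelium, while DSG2, DSC2, PKP2 and PKP3 are found more widely, in simple epithelia among others.

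In sh-RAD51C libraries 6 of the 10 genes were lower, 2 were higher and 2 were not called. A gene was called when its adjusted p was under 0.05 in limma, with Benjamini-Hochberg adjustment over all 11152 genes whose mean was at least 1 FPKM. The falls ran from PKP1, at 18.2% of its NC mean, through DSC3 at 36.6%, DSG3 at 50.7%, JUP at 68.4% and DSP at 80.3% to DSC2 at 82.5%. PKP2 and DSG2 were 1.19-fold and 1.1-fold higher. Over all genes tested 49.4% were called in either direction, 26.2% lower and 23.2% higher, so a call was common in this comparison. The median log2 fold change of the 10 genes was -0.26, against -0.01 over all genes tested. In these bulk libraries fewer cells that express a gene and less RNA per cell cannot be told apart.

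**Figure D1:**
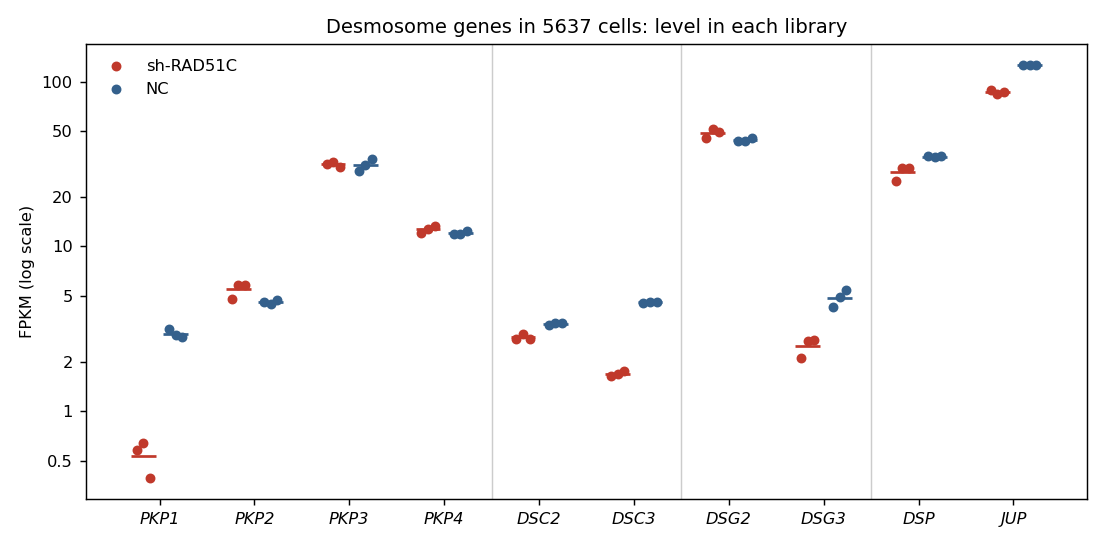
FPKM of the 10 desmosome genes on a log axis; each point is 1 library, red for sh-RAD51C and blue for NC, and the short lines are means of 3. PKP1, DSC3 and DSG3 show the widest gaps, with every sh-RAD51C library under every NC library, while PKP3, PKP4 and DSG2 overlap between the groups.

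RAD51C itself had 3.51, 3.09 and 2.95 FPKM in sh-RAD51C libraries 1, 2 and 3, against 14.7, 13.2 and 13.6 FPKM in NC libraries 1, 2 and 3, so the libraries matched their labels. The limma adjusted p was 7.16e-09, for a log2 fold change of -1.83 ± 0.064 (SE). An exact two-sided permutation test cannot go below p = 0.1 with 3 libraries against 3 and gave that value. Depth, inferred from the steps of the FPKM values, was 37104318 to 38079825 reads in sh-RAD51C libraries and 36068282 to 37560184 reads in NC libraries. Libraries of different groups lay 0.311 to 0.36 apart as a root mean square of log2 differences over genes tested. Library 1 of sh-RAD51C lay 0.144 and 0.145 from the other sh-RAD51C libraries, which were 0.117 apart, and NC libraries were 0.111 to 0.128 apart. In sh-RAD51C library 1, longer genes were also relatively lower, by -0.044 on the log2 scale per doubling of gene length, whereas the slope was 0.013 and 0.025 in sh-RAD51C libraries 2 and 3 and between -0.0024 and 0.0067 in NC libraries. Slopes with GC content ran with the groups, from -0.0349 to -0.00739 on the log2 scale per 10 percentage points of GC in sh-RAD51C libraries and from 0.0126 to 0.0199 in NC libraries. With length and GC trends removed, each of the 10 genes had the same call, with PKP1 at -1.31 and JUP at -0.48.

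The epithelial identity of the line was plain in the values, with 10 of 12 epithelial and urothelial markers at a mean of at least 1 FPKM. Of these KRT5, KRT17, KRT19, TP63 and CDH1 were lower in sh-RAD51C and KRT7, KRT8, KRT18, EPCAM and GATA3 were higher. The uroplakin genes UPK2 and UPK3A, which mark differentiated umbrella cells, were at most 0.228 FPKM in any library. None of 8 endothelial markers reached a mean of 1 FPKM. Of 8 listed fibroblast markers 3 did, THY1 (higher) and COL1A1 and FBLN1 (lower), and the 8 summed to 56.3 to 57.8 FPKM in sh-RAD51C and 70.5 to 70.9 FPKM in NC, with COL1A2 and DCN at most 0.0152 FPKM. Of 4 listed blood cell markers only CD14 did, with sums of 0.377 to 0.98 FPKM in sh-RAD51C and 1.47 to 1.78 FPKM in NC, and PTPRC was at most 0.0122 FPKM. CD14 averaged 0.573 FPKM in sh-RAD51C and 1.57 FPKM in NC, and passed the filter through its NC level. The part of these markers in the results was not tested.

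The 3 genes with the largest falls and the higher cadherin are shown with their promoter windows, 250 bases before to 50 bases after the RefSeq start on GRCh38.p14 to set 3 lower members beside a higher one. Windows are written 5′ to 3′ on the gene's strand, and capitals mark CCACCC or its complement GGGTGG, the core of the GC-rich box bound by Krüppel-like factors.
PKP1, chr1:201283256-201283555, plus strand: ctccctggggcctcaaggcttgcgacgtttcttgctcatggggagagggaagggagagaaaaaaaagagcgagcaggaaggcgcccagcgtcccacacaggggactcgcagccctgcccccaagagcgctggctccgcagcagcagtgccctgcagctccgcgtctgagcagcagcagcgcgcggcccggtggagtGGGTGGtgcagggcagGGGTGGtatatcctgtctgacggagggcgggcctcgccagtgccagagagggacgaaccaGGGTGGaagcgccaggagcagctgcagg
DSC3, chr18:31042693-31042992, minus strand: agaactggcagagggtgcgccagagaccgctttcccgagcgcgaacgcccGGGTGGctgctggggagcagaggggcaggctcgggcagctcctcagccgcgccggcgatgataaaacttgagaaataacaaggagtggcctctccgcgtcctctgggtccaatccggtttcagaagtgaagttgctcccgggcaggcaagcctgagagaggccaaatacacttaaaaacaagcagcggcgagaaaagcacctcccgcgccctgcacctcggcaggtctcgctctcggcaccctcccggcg
DSG3, chr18:31447491-31447790, plus strand: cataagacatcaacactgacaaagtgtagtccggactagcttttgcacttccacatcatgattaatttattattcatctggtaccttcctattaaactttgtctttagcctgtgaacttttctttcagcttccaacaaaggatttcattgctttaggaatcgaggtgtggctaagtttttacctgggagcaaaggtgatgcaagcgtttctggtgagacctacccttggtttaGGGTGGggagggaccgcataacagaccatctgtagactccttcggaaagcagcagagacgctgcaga
DSG2, chr18:31497927-31498226, plus strand: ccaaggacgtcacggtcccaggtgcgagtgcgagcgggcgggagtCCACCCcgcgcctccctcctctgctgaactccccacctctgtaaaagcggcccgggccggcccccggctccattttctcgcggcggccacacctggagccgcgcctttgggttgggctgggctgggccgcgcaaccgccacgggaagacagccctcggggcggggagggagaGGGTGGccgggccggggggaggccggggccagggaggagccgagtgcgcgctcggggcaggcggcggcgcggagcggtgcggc

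The RefSeq windows matched 8 of the 10 genes, all but PKP2 and PKP3, with 11 windows because PKP4, JUP and DSC2 have a pair each. The window of DSG3 had 44.0% GC and 6 CpG, the lowest of the 11, and that of DSG2, its neighbour on the chromosome, had 76.7% GC and 36 CpG. PKP1 had 67.3% GC and 19 CpG and DSC3 63.3% GC and 25 CpG, where the median of all 35116 windows was 58.7% GC and 14 CpG. Searched on both strands, CCACCC was in 10 of the 11 windows and in all 8 genes, against 34.3% of all windows. Of these 8 genes only DSG2 was called higher and only PKP4 was not called. Shares over all windows were not matched for GC content, and every member window but that of DSG3 had 60.7% to 77.0% GC. PKP1 held 3 matches, DSG2 held 2, and DSC3 and DSG3 held 1 each. GGGCGG, the Sp1 box, was in 8 of the 11 windows, of PKP1, PKP4, DSP, JUP, DSC2 and DSG2 (45% of all windows). It was not found in the windows of DSC3 and DSG3 or in that of JUP at 41785927 to 41786226. CAGGTG, an E-box bound by Snail and ZEB factors, was in 4 of the 11, of DSP, JUP, DSC2 and DSG2 (20.6% of all windows), and CCAAT was in 3 of the 11, of PKP4, JUP and DSC3 (34.6% of all windows). TGANTCA of AP-1 (7.71% of all windows), GGAATG of TEAD factors (14%), AACNNGTT of grainyhead factors (3.52%) and TATAAA (11.5%) were in none of the 11. The motifs were chosen with the results known, 0 pairs of matches of different motifs shared bases in these windows, and a match describes letters, not binding.

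Among the plakophilins, PKP1 fell furthest. PKP1 (chromosome 1, plus strand, 201283452 to 201332993) binds keratin and desmoplakin and widens the desmosomal plaque. Its level was 0.580, 0.640 and 0.391 FPKM in sh-RAD51C libraries 1, 2 and 3, against 3.14, 2.89 and 2.82 FPKM in NC libraries 1, 2 and 3. All sh-RAD51C libraries lay far under the lowest NC library, and these values rested on 119, 128 and 80 inferred reads in sh-RAD51C and 611, 585 and 571 in NC. The means were 0.537 ± 0.130 FPKM in sh-RAD51C and 2.95 ± 0.170 FPKM in NC (SD, n = 3 each), a level 5.5-fold lower in sh-RAD51C. On the log2(FPKM + 1) scale, which understates changes of low genes, the fold change was -1.37 ± 0.079 (SE; limma, adjusted p = 1.91e-07). With limma's voom on the inferred reads it was -2.48, and with a pseudocount of 0.1 FPKM it was -2.28. PKP1 ranked 46 of 11152 genes by the size of its fall on the log2(FPKM + 1) scale. However, it passed the filter on low values through its NC level.

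PKP2, the plakophilin of simple epithelia and heart muscle, was higher. It had 4.80, 5.81 and 5.83 FPKM in sh-RAD51C libraries 1, 2 and 3, against 4.57, 4.49 and 4.70 FPKM in NC libraries 1, 2 and 3. Every sh-RAD51C library lay above every NC library, library 1 by a small margin. The log2 fold change was 0.21 ± 0.070 (SE; limma, adjusted p = 0.0275), and the call was lost when any of 4 libraries was left out (NC 1, NC 2, sh-RAD51C 2 or sh-RAD51C 3), with limma adjusted p from 0.0653 to 0.1. Without sh-RAD51C library 1 it was 0.29, with a limma adjusted p of 0.00189.

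PKP3 and PKP4 did not pass the test. PKP3, the most abundant plakophilin of these cells and a partner of most desmosomal proteins, averaged 31.6 ± 1.19 FPKM in sh-RAD51C and 31.4 ± 2.62 FPKM in NC (SD, n = 3 each). Its libraries ran from 30.3 to 32.7 FPKM in sh-RAD51C, inside the NC range of 28.9 to 34.2 FPKM. The 95% interval of its log2 fold change ran from -0.11 to 0.13. PKP4, also called p0071, is found at both desmosomes and adherens junctions and averaged 12.7 ± 0.626 FPKM in sh-RAD51C and 12.1 ± 0.280 FPKM in NC (SD, n = 3 each). Its ranges overlapped, 12.0 to 13.3 FPKM in sh-RAD51C and 11.9 to 12.4 FPKM in NC, with an interval from -0.04 to 0.17 (limma, adjusted p = 0.31). The summed plakophilin level was close in the groups, 50.3 ± 1.38 FPKM in sh-RAD51C and 51.1 ± 2.80 FPKM in NC (SD, n = 3 each), and PKP1 was the least abundant of the family in both groups.

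The desmosomal cadherin genes lie side by side on chromosome 18, the desmocollins on the minus strand and the desmogleins on the plus strand. DSC3 runs from 30990008 to 31042815, DSC2 from 31058840 to 31102522, DSG3 from 31447795 to 31478702 and DSG2 from 31498043 to 31549008, with DSC1, DSG1 and DSG4 between DSC2 and DSG3. DSC3, DSC2 and DSG3 of this cluster were lower in sh-RAD51C. DSG2 was slightly higher, with groups that overlapped and a call made in 8 of 15 alternatives. DSC1 and DSG1, which are expressed in the upper layers of skin, were at or near 0 in all 6 libraries, with at most 0.00771 FPKM.

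DSC3 had 1.63, 1.68 and 1.75 FPKM in sh-RAD51C libraries 1, 2 and 3, against 4.56, 4.61 and 4.63 FPKM in NC libraries 1, 2 and 3. The libraries of each group were nearly alike and the groups lay far apart, from 473 to 507 inferred reads in sh-RAD51C and from 1253 to 1325 in NC. Its level was 2.73-fold lower in sh-RAD51C. On the log2(FPKM + 1) scale the fold change was -1.06 ± 0.058 (SE; limma, adjusted p = 1.27e-07). By the size of the fall on that scale DSC3 ranked 96 of 11152 genes.

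DSC2, the desmocollin of simple as well as stratified epithelia, had 2.73, 2.93 and 2.73 FPKM in sh-RAD51C libraries 1, 2 and 3, against 3.33, 3.42 and 3.43 FPKM in NC libraries 1, 2 and 3. The groups did not overlap, but the fall was small, -0.21 ± 0.058 on the log2 scale (SE; limma, adjusted p = 0.0112). The call was lost with quantile normalization (log2 fold change -0.14, limma adjusted p = 0.0559). Because DSC3 fell more than DSC2, the balance of the pair changed: DSC2 made up 62.7%, 63.6% and 61.0% of the summed desmocollin FPKM in sh-RAD51C libraries 1, 2 and 3, against 42.3%, 42.6% and 42.6% in NC libraries 1, 2 and 3. By FPKM, DSC3 was the more abundant desmocollin in every NC library and the less abundant in every sh-RAD51C library. In inferred reads, not per length, DSC2 led DSC3 in NC as well. DSC2 had 1492, 1593 and 1597 reads in NC libraries 1, 2 and 3, and DSC3 had 1253, 1320 and 1325. Their order in NC thus rests on the inferred gene lengths, 12408 bases for DSC2 and 7626 for DSC3. The difference in the DSC2 share of summed FPKM was 19.95 percentage points (exact two-sided permutation test, p = 0.1, the smallest the design allows). The summed desmocollin level was 4.48 ± 0.122 FPKM in sh-RAD51C and 7.99 ± 0.0884 FPKM in NC (SD, n = 3 each).

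**Figure D2:**
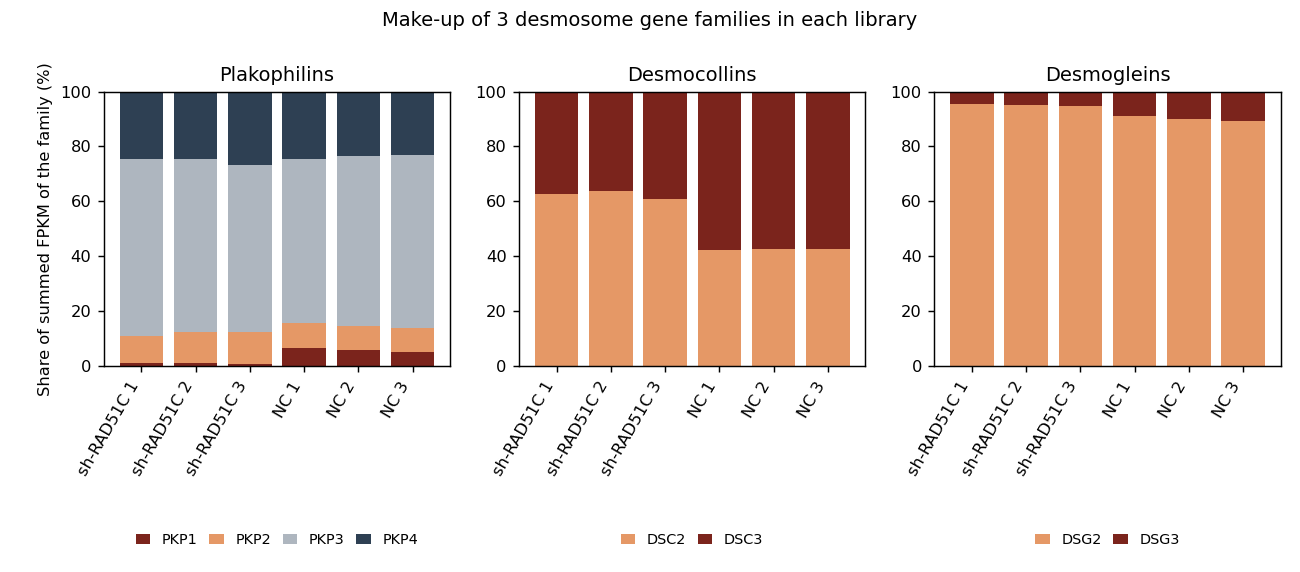
Share of each gene in the summed FPKM of its family, in percent, 1 bar per library with sh-RAD51C left of NC. DSC2 fills 61.0% to 63.6% of the desmocollin bars in sh-RAD51C and 42.3% to 42.6% in NC, DSG2 dominates the desmogleins in all 6 libraries, and PKP1 is a thin band that shrinks in sh-RAD51C.

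DSG3, the desmoglein of basal squamous cells and the target of autoantibodies in pemphigus vulgaris, had 2.09, 2.66 and 2.68 FPKM in sh-RAD51C libraries 1, 2 and 3, against 4.30, 4.91 and 5.47 FPKM in NC libraries 1, 2 and 3. Both groups were spread out, yet the highest sh-RAD51C library lay under the lowest NC library. The level was 1.97-fold lower in sh-RAD51C (log2 fold change -0.76 ± 0.090, SE; limma, adjusted p = 4.15e-05).

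DSG2, the desmoglein present in nearly all desmosome-bearing tissues, had 45.5, 51.8 and 49.7 FPKM in sh-RAD51C libraries 1, 2 and 3, against 43.7, 44.0 and 45.6 FPKM in NC libraries 1, 2 and 3. Library 1 of sh-RAD51C lay under NC library 3, so the groups overlapped. The log2 fold change was 0.14 ± 0.047 (SE; limma, adjusted p = 0.0335). That call was lost when NC 1, NC 2, sh-RAD51C 2 or sh-RAD51C 3 was left out (limma adjusted p from 0.0931 to 0.131) and with quantile normalization (0.175), no filter on low values (0.114) or no trend in the variance (0.0721). Without sh-RAD51C library 1 it was 0.19, with a limma adjusted p of 0.00258. The antisense gene DSG2-AS1 shares exonic bases with DSG2 and was at most 0.0977 FPKM in any library, though without knowledge of strand use the reads of the overlap cannot be told apart. PKP4 and PKP4-AS1 overlap likewise, with PKP4-AS1 at most 0.0477 FPKM.

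DSG2 was the bulk of the desmogleins throughout. It made up 95.2 ± 0.369% of their summed FPKM in sh-RAD51C and 90.1 ± 0.889% in NC (SD, n = 3 each; exact two-sided permutation test, p = 0.1, the smallest the design allows). The summed level overlapped between the groups, from 47.6 to 54.5 FPKM in sh-RAD51C and from 48.0 to 51.1 FPKM in NC. In the plakophilin family PKP1 held 1.06 ± 0.245% in sh-RAD51C and 5.80 ± 0.631% in NC, and PKP2 held 10.9 ± 1.02% in sh-RAD51C and 8.99 ± 0.372% in NC (SD, n = 3 each; exact two-sided permutation test, p = 0.1 for each). The share of PKP3 overlapped, at 62.8 ± 1.90% in sh-RAD51C and 61.5 ± 1.82% in NC (exact two-sided permutation test, p = 0.5, n = 3 each), as did that of PKP4 (p = 0.2 by the same exact test).

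Of the plaque genes, JUP and DSP were lower as well, whereas the summed plakophilin level was close in the groups. JUP encodes plakoglobin, a close relative of beta-catenin that binds the tails of desmosomal and classical cadherins, and lies on chromosome 17 from 41754604 to 41786931. It had 89.5, 84.1 and 86.8 FPKM in sh-RAD51C libraries 1, 2 and 3, against 127, 127 and 126 FPKM in NC libraries 1, 2 and 3. The groups were well apart relative to their spread (log2 fold change -0.54 ± 0.035, SE; limma, adjusted p = 4.24e-07). The depth behind these values was 12880 to 14060 inferred reads per sh-RAD51C library and 18950 to 19702 per NC library.

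DSP, which encodes desmoplakin, the link to keratin, lies on chromosome 6 from 7541575 to 7586717. It had 25.03, 29.91 and 29.82 FPKM in sh-RAD51C libraries 1, 2 and 3, against 35.4, 34.8 and 35.3 FPKM in NC libraries 1, 2 and 3. No library overlapped, and sh-RAD51C library 1 lay well under its own group. The log2 fold change was -0.31 ± 0.060 (SE; limma, adjusted p = 0.00134). It was -0.23 without sh-RAD51C library 1 (limma adjusted p = 0.000511) and -0.27 once trends with gene length and GC content had been removed from every library (limma adjusted p = 0.000319). That library was also the lowest of the 3 sh-RAD51C libraries for PKP2, PKP4, DSC3, DSG2 and DSG3 and, by a small margin, for DSC2.

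**Figure D3:**
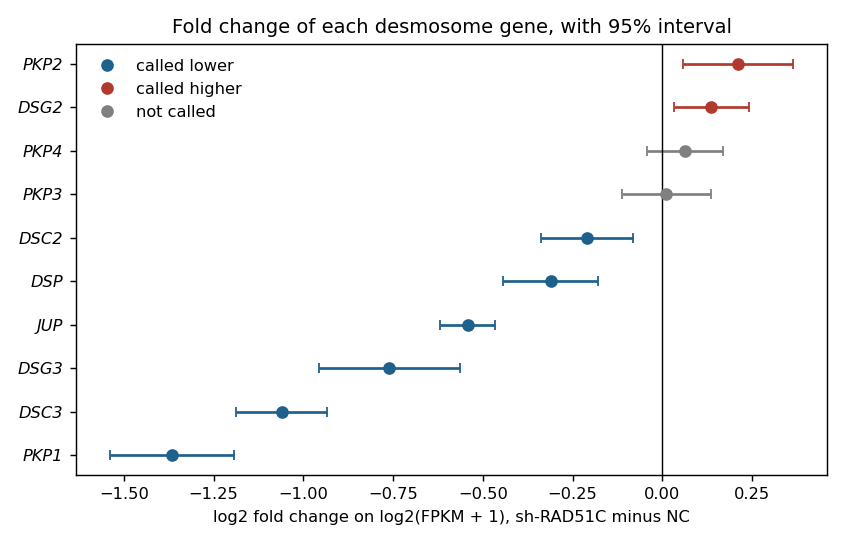
Log2 fold change of each gene on the log2(FPKM + 1) scale, sh-RAD51C minus NC, with its 95% interval from limma. The order runs from PKP2 at 0.21 to PKP1 at -1.37, and only the intervals of PKP3 and PKP4 include 0.

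By level per gene length, JUP led and DSG2 followed in both groups, at 86.8 and 49.0 FPKM in sh-RAD51C and 127 and 44.5 FPKM in NC. In sh-RAD51C the order went on with PKP3, DSP, PKP4, PKP2, DSC2, DSG3, DSC3 and PKP1, and the ranges of neighbours did not overlap. In NC it went on with DSP, PKP3, PKP4, DSG3, DSC3, PKP2, DSC2 and PKP1, where the ranges of DSG3 and DSC3 overlapped and those of DSC3 and PKP2 overlapped. PKP3 thus stood above DSP in sh-RAD51C and below it in NC. In 7 of the 10 genes the 2 groups did not overlap, beside 58.4% of all genes tested.

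Other genes of the desmosome and its surroundings gave the wider picture, from lists chosen with earlier results of these data known. The counts of each list stand beside 49.4% of all genes tested called, 26.2% lower and 23.2% higher. Of 10 further desmosome-associated genes 9 were listed and 5 were tested, with 2 lower, 0 higher and 3 not called, and a median log2 fold change of -0.04. PERP, a tetraspan membrane protein of desmosomes and a target of p63 and p53, averaged 128 ± 6.37 FPKM in sh-RAD51C and 168 ± 1.46 FPKM in NC (SD, n = 3 each; log2 fold change -0.40, limma adjusted p = 1.37e-05). The plakin envoplakin (EVPL) was 1.15-fold lower in sh-RAD51C (limma adjusted p = 0.0469), a call made in 6 of 15 alternatives with limma adjusted p from 0.0189 to 0.285. Its partner periplakin (PPL) averaged 1.95 ± 0.0409 FPKM in sh-RAD51C and 2.03 ± 0.159 FPKM in NC, and was not called. PNN and TCHP, a nuclear and a keratin-binding protein linked to desmosomes, had log2 fold changes of 0.04 and -0.03 and were not called. KAZN and CDSN, of the skin's cornifying layers, were at most 0.123 FPKM.

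The keratins, to which desmoplakin binds, moved in both directions, with all 13 tested of 16 called, 9 lower and 4 higher (median log2 fold change -1.03). KRT5, the basal keratin, was 301 ± 3.04 FPKM in sh-RAD51C and 686 ± 6.81 FPKM in NC, and KRT14, its usual partner, was 2.91 ± 0.618 FPKM in sh-RAD51C and 16.1 ± 1.14 FPKM in NC (SD, n = 3 each). KRT13, a keratin of stratified mucosa, was 20.5-fold lower in sh-RAD51C, at 12 to 15 inferred reads per library there, and passed the filter on low values through its NC level. KRT80 was 3.94-fold higher in sh-RAD51C. The keratins of simple epithelia were split: KRT7, KRT18 and KRT8 were 1.68-fold, 1.63-fold and 1.26-fold higher, whereas KRT19 averaged 682 ± 13.8 FPKM in sh-RAD51C and 1074 ± 21.4 FPKM in NC (SD, n = 3 each; log2 fold change -0.66, limma adjusted p = 2.61e-07). Several keratins, KRT14, KRT16 and KRT17 and the KRT6 genes among them, have near-identical stretches, which makes the assignment of reads among them uncertain.

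Adherens junction genes, which hold the same cells together through actin, had 3 higher, 6 lower and 4 not called of 13 tested (median log2 fold change -0.07). NECTIN1, an immunoglobulin-type adhesion protein, was 24.2 ± 1.21 FPKM in sh-RAD51C and 73.8 ± 1.24 FPKM in NC (SD, n = 3 each; log2 fold change -1.57, limma adjusted p = 1.24e-09). NECTIN4 was 3.89-fold lower in sh-RAD51C and P-cadherin (CDH3) 1.24-fold lower, whereas N-cadherin (CDH2) was 22.7 ± 0.292 FPKM in sh-RAD51C and 15.3 ± 0.717 FPKM in NC. The count includes CTNND1, which shares exons with a read-through gene, so its value is uncertain. CTNND1 averaged 0.849 FPKM in sh-RAD51C and 1.36 FPKM in NC, and passed the filter on low values through its NC level.

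Of 17 transcription factors known to act on epithelial junction genes 12 were tested, with 6 lower, 3 higher and 3 not called (median log2 fold change -0.24). TP63, the master regulator of basal and squamous epithelium, averaged 17.8 ± 1.17 FPKM in sh-RAD51C and 28.8 ± 0.335 FPKM in NC (SD, n = 3 each; log2 fold change -0.67, limma adjusted p = 9.62e-07). KLF5 and ELF3, epithelial factors of the Krüppel-like and ETS families, were 2.06-fold and 2.03-fold lower in sh-RAD51C. The 3 higher factors were SNAI2, OVOL2 and KLF4, at 1.58-fold, 1.42-fold and 1.25-fold. Among 9 tested of 11 proteases and kinases that act on desmosomes, 2 were higher and 4 lower (median log2 fold change -0.08). The sheddases ADAM9, ADAM17 and ADAM10 had log2 fold changes of 0.47, -0.31 and -0.16, and KLK5, a kallikrein that degrades desmosomal cadherins in skin, had -0.40. KLK5 was not called when genes of every level were tested (limma adjusted p = 0.0942, against 0.00301 to 0.0476 in the other alternatives).

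**Figure D4:**
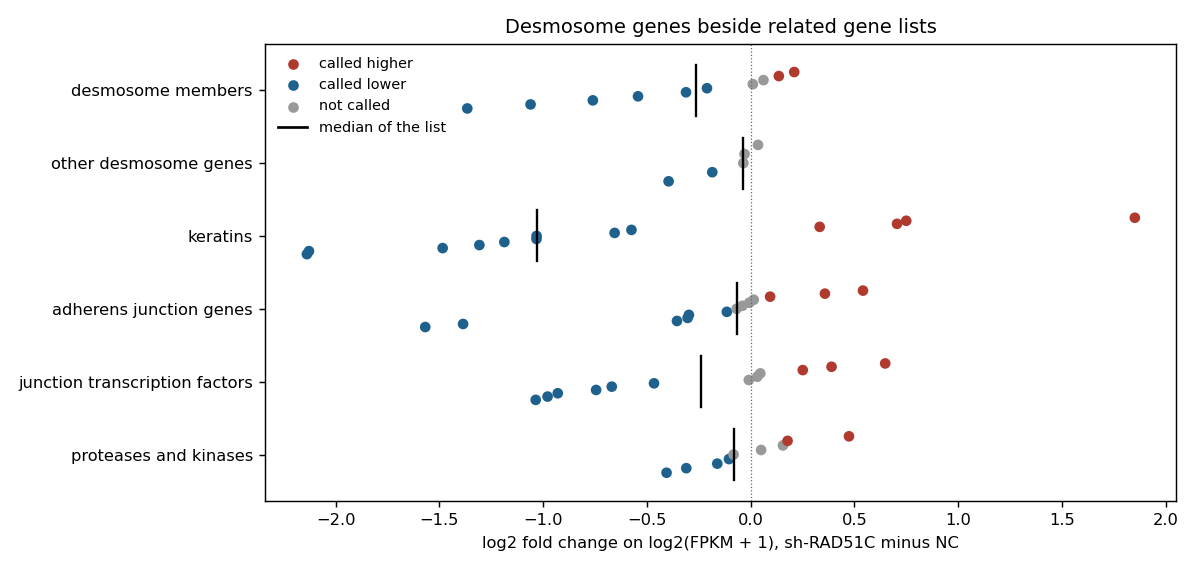
Log2 fold change on the log2(FPKM + 1) scale, sh-RAD51C minus NC, of each tested gene in the desmosome set and 5 related lists; colour shows the call and black bars are medians. The desmosome genes run from -1.37 to 0.21 with a median of -0.26, the keratins spread more widely around a median of -1.03, and the adherens junction genes run from -1.57 to 0.54.

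Across 14 or 15 alternative treatments of the data per gene, PKP1, DSC3, DSG3, DSP and JUP were called lower in each one in which they were tested. Their log2 fold changes ran from -2.48 to -1.27 for PKP1, from -1.45 to -0.996 for DSC3, from -0.99 to -0.68 for DSG3, from -0.35 to -0.23 for DSP and from -0.57 to -0.48 for JUP. DSC2 was called in 13 of 14 alternatives, PKP2 in 10 of 15 and DSG2 in 8 of 15, while PKP3 and PKP4 were called in 0 of 15.

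**Figure D5:**
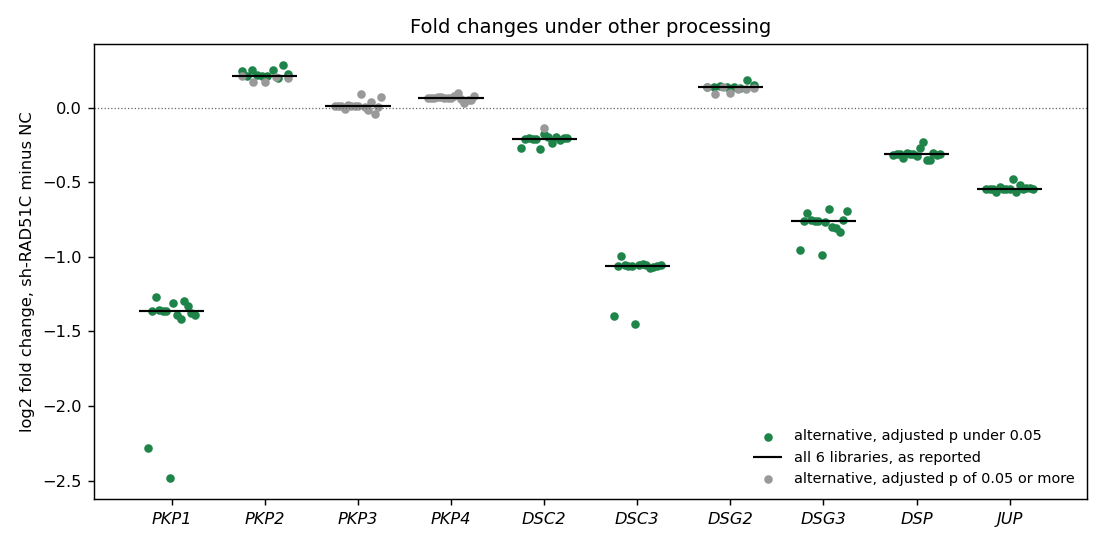
Log2 fold change of each gene, sh-RAD51C minus NC; the black line is the value from all 6 libraries and each point is 1 alternative, green where its adjusted p was under 0.05 and grey otherwise. PKP1, DSC3, DSG3, DSP and JUP are green throughout, and the 2 low points of PKP1 are the pseudocount of 0.1 and voom.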

How the data were processed

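The deposited values are FPKM, calculated by the authors, and relate sequenced reads or fragments to each gene's length and each library's total. The submitters' processing notes give hg38 as the build and list DESeq2 and R 3.2.0, with no role for either. For the aligner, counter, strand setting and annotation, the entry is: not given in the sources used here. Titles assigned each of the 6 columns to its library, and 0 columns remained unused.

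The filter kept 11152 of 23024 genes, those averaging 1 FPKM or more, and log2(FPKM + 1) values were compared between the groups in limma 3.58.1 under R 4.3.3. The variance prior followed a trend with level, the design held the group alone, and p-values were adjusted by Benjamini-Hochberg. Whole reads (within 0.01) and gene lengths were inferred from the FPKM steps for 100.0% of the genes tested and served for depth and a voom alternative. Intervals are at 95%. GC content was found for 95.8% of the genes tested. Positions are from GENCODE on GRCh38 (hg38), and promoter windows from RefSeq on GRCh38.p14. The fit was tested on simulated data. Members and lists were chosen with earlier results of these data known. Beside all 10 members the text names RAD51C, the further desmosome genes, and the 4 or fewer lowest-p genes of every other list, of which 1 is not reported here; any gene beyond these was named after its values were seen. Family shares were compared by exact permutation in Python 3.11.15 with numpy 2.4.6 and pandas 2.3.3; intervals used scipy 1.17.1.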

Additional observations from a re-analysis of the deposited data

How the results depend on the processing

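PKP1, DSC3, DSG3, DSP, JUP and RAD51C kept direction and call in every alternative in which they were tested; PKP1, DSC2, DSC3 and DSG3 were not tested at a mean of 5 FPKM, so that the lower members called numbered 2 there (1859 lower genes in all). Without the filter on low values the calls of PKP2 (0.21, limma adjusted p = 0.0995) and DSG2 (0.14, 0.114) were lost, leaving 0 higher members. Quantile normalization lost DSG2 (0.0896) and DSC2 (-0.14), leaving 1 higher member, and turned PKP3 to -0.00763, PPL to 0.0449 and TCHP to 0.00669, none of them called. Empirical Bayes without a trend lost DSG2 (0.14, adjusted p = 0.0721; 1 higher member). Removing length and GC trends turned PPL to 0.0440. Leaving out single libraries gave log2 fold changes of 0.17 to 0.29 for PKP2, 0.10 to 0.19 for DSG2, -0.0457 to 0.0705 for PKP3 (below 0 without NC 1 or sh-RAD51C 2, where it was -0.0123) and -0.0879 to 0.0188 for TCHP (above 0 without NC 2), and 0 to 2 higher members. Calls among the further desmosome genes numbered 1 rather than 2 without the filter, with quantile normalization, median-of-ratios scaling, no trend or length and GC trends removed, and 1 to 2 without single libraries. As shares of inferred reads, not per length, differences were -6.09 percentage points for PKP1, 2.79 for PKP4, 18.4 for DSC2 and -18.4 for DSC3. The causes were not tested.

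Whether the replicate numbers pair the libraries could not be told from 3 libraries per group. Deviations from the group mean correlated at 0.19, 0.026 and 0.091 for same-numbered libraries and at -0.167 to 0.11 for differently numbered ones. With the replicate block every member kept its call (DSG2 0.14, limma adjusted p = 0.0262; DSC2 -0.21, 0.0163), and 2601 genes were higher and 2968 lower. Depth limits PKP1 most, at 80 to 128 inferred reads per sh-RAD51C library.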
